A study of Mus musculus with 10 samples.

Results

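A set of 10 genes of the DLK-JNK axon injury pathway was followed in retinal cells 3 days after optic nerve crush (ONC): *Map3k12* (encoding DLK), *Map3k13* (LZK), *Map2k4* (MKK4), *Map2k7* (MKK7), *Mapk8*, *Mapk9* and *Mapk10* (JNK1, JNK2 and JNK3), *Mapk8ip3* (JIP3), *Ddit3* (CHOP) and *Atf4*. The genes were taken by symbol from the RNA-seq table, where 10 of the 53974 genes listed are these members and all 10 were among the 17555 genes tested. From the ATAC-seq comparison, 7 of 16600 regions lay within 1000 bp of an end of a member. All mice were C57BL/6 carrying floxed *Arid1a* on both alleles (fl/fl), 8 to 10 weeks old by the labels, and were given AAV2 into the eye 2 weeks before ONC. The WT group received AAV2-GFP and kept the floxed alleles (*Arid1a* fl/fl), and the cKO group received AAV2-Cre, with the genotype given as del/del. The virus used a CMV promoter, which is not restricted to one retinal cell type, cells were sorted with an antibody to Thy1.2, and 4 to 5 retinas were pooled per sample. RNA-seq covered 3 WT and 3 cKO libraries and ATAC-seq 2 of each, described by the submitters as biological replicates. Expression is given as TPM, an abundance per transcript length scaled to a fixed sum per library, which keeps no read depth, so no counting error can be stated.

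DLK and LZK are mixed lineage kinases that are activated when an axon is damaged. They phosphorylate the kinases MKK4 and MKK7, which in turn phosphorylate the JNKs, and JIP3 is a scaffold that holds JNKs together with their upstream kinases on vesicles moving along the axon. In retinal ganglion cells (RGCs) the cascade is known to act on c-Jun and to engage the integrated stress response, in which ATF4 is made more efficiently from its mRNA and induces CHOP, and it is known for promoting RGC death after axon injury. Most of this signalling runs through phosphorylation and translation, which mRNA levels do not measure.

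*Arid1a* and markers of the sorted cells were looked at first. *Arid1a* was at 18.8, 11.7 and 14.1 TPM in WT replicates 1, 2 and 3 and at 18.8, 27.9 and 25.0 TPM in cKO replicates 1, 2 and 3. The label cKO thus did not come with less *Arid1a* RNA (log2 fold change 0.66 ± 0.28 (SE), adjusted p = 0.274 from limma), and every RNA-seq direction here is given by label. TPM per gene does not show whether the floxed part was still transcribed, so these values cannot check the deletion. In the paper, ARID1A staining of Tuj1-positive retinal cells was lower after AAV2-Cre than after AAV2-GFP. That was protein in retinal sections 2 weeks after injection, and not in the sorted cells 3 days after ONC used here. Of 12 RGC markers, *Pou4f2* was listed at 0 in every library but cKO replicate 3, and *Pou4f3* in every library but WT replicate 1. The summed TPM of the RGC markers was 144 to 205 in WT and 227 to 253 in cKO. Most of this sum came from *Thy1*, the gene of the sorting antigen, and from *Isl1*. *Thy1* was at 51.9 to 88.5 TPM in WT and 94.4 to 129 TPM in cKO, and *Isl1* overlapped (51.9 to 98.0 and 55.8 to 104 TPM). The sum thus says little of RGC content. Of 9 tested markers, 6 lay above 0 in log2 fold change (*Tubb3* 1.01, *Thy1* 0.71, *Nefl* 0.68, *Isl1* 0.26, *Nefh* 0.11 and *Nefm* 0.02). The other 3 lay below (*Rbpms* -0.41, *Pou4f1* -0.64 and *Sncg* -0.83). *Tubb3*, which encodes the βIII tubulin that the paper stained with Tuj1, did not overlap between labels. It was at 3.45 to 5.32 TPM in WT and 7.05 to 12.0 TPM in cKO (adjusted p = 0.175 from limma). All 10 rod markers lay higher in every cKO library than in any WT library (summed TPM 12719 to 17808 in WT and 26520 to 49438 in cKO). Summed T cell markers ran from 346 to 1001 TPM in WT and from 95.1 to 228 TPM in cKO, and summed myeloid markers from 2219 to 3401 and from 902 to 1261 TPM. All 10 T cell markers and all 10 myeloid markers had a log2 fold change below 0, as did 8 of 8 markers of Mueller glia and astrocytes (9339 to 18462 TPM in WT and 7618 to 17445 TPM in cKO). Of 6 amacrine markers 5 had a value above 0 (435 to 615 TPM in WT and 879 to 1686 TPM in cKO), as did 6 of 6 bipolar markers (749 to 1016 and 1022 to 1478 TPM). The part that these shifts had in the values of the pathway genes was not tested. In such bulk samples, fewer cells of a type and less RNA per cell cannot be told apart.

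Where the genes lie and what stands before their starts bears on the ATAC-seq values given further on. Positions are on GRCm38, counted from 1. *Map3k12* lies on the minus strand at chr15:102497647-102517004, where its 5′ part overlaps *Tarbp2* on the other strand by 928 bp and its 3′ part overlaps *Pcbp2* by 2422 bp. *Map3k13* lies on the plus strand at chr16:21824056-21933439. The kinase genes *Map2k4* and *Map2k7* lie at chr11:65688244-65788359 (minus) and chr8:4238740-4247897 (plus). Of the JNK genes, *Mapk8* is at chr14:33377898-33447353 (minus), *Mapk9* at chr11:49846728-49886421 (plus) and *Mapk10* at chr5:102908547-103212604 (minus). *Mapk8ip3* is at chr17:24897506-24936977 (minus), *Ddit3* at chr10:127290793-127296291 (plus) and *Atf4* at chr15:80255184-80257545 (plus). *Ddit3* shares 77 bp with *Mbd6* and 71 bp with *Mars1*, and whether the reads were assigned by strand is not given in the sources used here.

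RefSeq promoter sequences of GRCm38.p6 were available for all 10 genes, with 15 annotated starts in all. The 250 bases before a start are shown for 7 of them, chosen because their chromatin or motifs are described here: both starts of *Map3k12*, of which only the inner one lay under a peak, *Map3k13*, whose listed start lies inside the annotated gene and under no peak, *Mapk8*, which had the lowest ATAC-seq value in cKO among the 7 regions at members' ends, *Mapk10*, and the pair *Ddit3* and *Atf4*. Each reads 5′ to 3′ along the gene, and capitals mark the core of the cyclic AMP response element (TGACG), the AP-1 site TGANTCA, to which Jun dimers bind, and the C/EBP-ATF response element TGATGNAA, on either strand.
*Map3k12* outer start (chr15:102517005-102517254, minus strand): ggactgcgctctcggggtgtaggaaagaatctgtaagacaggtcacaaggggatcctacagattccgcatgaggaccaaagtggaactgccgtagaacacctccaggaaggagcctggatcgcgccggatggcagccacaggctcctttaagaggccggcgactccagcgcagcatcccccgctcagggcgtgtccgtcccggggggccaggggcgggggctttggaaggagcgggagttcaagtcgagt
*Map3k12* inner start (chr15:102510701-102510950, minus strand): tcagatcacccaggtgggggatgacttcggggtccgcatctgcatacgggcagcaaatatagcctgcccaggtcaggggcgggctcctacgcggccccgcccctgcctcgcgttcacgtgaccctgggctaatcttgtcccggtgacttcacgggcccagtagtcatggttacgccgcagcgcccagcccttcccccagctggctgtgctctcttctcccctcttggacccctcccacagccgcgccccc
*Map3k13* (chr16:21891719-21891968, plus strand): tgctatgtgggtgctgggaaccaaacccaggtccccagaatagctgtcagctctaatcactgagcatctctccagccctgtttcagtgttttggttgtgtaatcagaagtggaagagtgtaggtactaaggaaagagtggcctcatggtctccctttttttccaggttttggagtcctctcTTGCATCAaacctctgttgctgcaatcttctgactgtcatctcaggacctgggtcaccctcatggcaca
*Mapk8* (chr14:33447159-33447408, minus strand): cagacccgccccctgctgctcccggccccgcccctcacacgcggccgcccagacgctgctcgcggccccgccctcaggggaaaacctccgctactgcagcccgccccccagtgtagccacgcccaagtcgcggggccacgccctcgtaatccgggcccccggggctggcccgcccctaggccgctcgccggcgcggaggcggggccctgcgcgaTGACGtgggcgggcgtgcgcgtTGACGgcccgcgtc
*Mapk10* (chr5:103211335-103211584, minus strand): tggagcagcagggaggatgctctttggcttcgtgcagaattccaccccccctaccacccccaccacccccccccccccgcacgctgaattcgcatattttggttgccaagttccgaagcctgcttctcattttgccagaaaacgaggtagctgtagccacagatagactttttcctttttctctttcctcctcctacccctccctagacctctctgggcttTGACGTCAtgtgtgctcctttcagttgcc
*Ddit3* (chr10:127290543-127290792, plus strand): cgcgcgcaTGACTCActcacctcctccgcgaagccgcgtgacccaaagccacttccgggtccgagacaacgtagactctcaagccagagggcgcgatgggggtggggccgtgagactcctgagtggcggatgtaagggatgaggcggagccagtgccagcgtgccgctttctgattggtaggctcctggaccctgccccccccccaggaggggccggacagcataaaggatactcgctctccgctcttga
*Atf4* (chr15:80254934-80255183, plus strand): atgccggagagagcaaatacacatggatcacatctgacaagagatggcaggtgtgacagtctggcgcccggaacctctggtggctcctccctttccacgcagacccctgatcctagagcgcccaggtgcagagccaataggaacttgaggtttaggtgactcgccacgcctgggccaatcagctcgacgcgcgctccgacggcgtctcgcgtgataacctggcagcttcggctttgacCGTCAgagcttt

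Of the 15 promoters, 1 held the full element TGACGTCA, against 1.55% of 32851 mouse promoters of the same length. That promoter was the one of *Mapk10*, with its match at base -29 from the start. The core TGACG, which the full element contains, was found in 6 of 15 promoters (17.8% of all promoters), with 2 copies before *Mapk8*. The AP-1 letters were found in 2 of 15 (6.75% of all), before *Ddit3* at base -242 and before an inner start of *Map2k7* at base -92. TGATGNAA was also found in 2 of 15 (3.45% of all), before *Map3k13* at base -69 and before the same inner start of *Map2k7* at base -59. The GC box GGGCGG was in 5 of 15 (32.7% of all), the ETS letters CCGGAA in 4 of 15 (12% of all) and CCAAT in 5 of 15 (33.8% of all). The *Mapk8* promoter was 79.2% G or C and held 7 GC boxes, against a median of 52.4% G or C over all promoters. These are matches of letters in a window and not shown sites.

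In the RNA-seq, 9 of the 10 genes had a log2 fold change above 0 (cKO minus WT), as did 61.1% of all genes tested, and 1, *Ddit3*, had one below 0. By mean TPM 2 genes were lower in cKO, *Ddit3* and *Map2k4*, whose log2 fold change was close to 0. No member passed an adjusted p of 0.05 from limma (0 of 10, where 0.0057% of all genes tested passed), and their adjusted p from limma ran from 0.183 to 0.979. Over all genes tested, this fit called 1. The paper's DESeq2 test, at the same adjusted cutoff, called far more genes, most of them lower in cKO. A member not called here is thus not shown to be unchanged. At an unadjusted p under 0.05 from limma, 3 members lay higher in cKO, *Map3k13*, *Mapk8* and *Mapk10*, where 11.9% of all genes tested did, and 0 lay lower, where 6.45% did. Every cKO library lay above every WT library for 4 members, *Map3k12*, *Map3k13*, *Mapk8* and *Atf4*, against 18.7% of all genes, and 0 members lay the other way round, against 7.18% of all genes. The median log2 fold change of the 10 was 0.43, beside 0.16 over all genes tested. After scaling to the median of ratios, these medians were 0.26 and 0.01, and 8 of the 10 lay above 0, beside 50.8% of all genes, since *Map2k4* moved below it. The count of 3 at an unadjusted p under 0.05 became 1 without WT replicate 1, 0 without cKO replicate 1, 1 without cKO replicate 2 and 1 without cKO replicate 3. Over all genes, the 2095 higher in cKO became 1716, 1138, 976 and 2279 in the same fits. The members' count was 2 after scaling by the median of ratios (1338 over all genes) and 2 without WT replicate 3 (1624). It was also 2 with a pseudocount of 0.1 (2040), at a mean TPM of at least 5 (1580) and with no trend in the variance (2119). Exact two-sided permutation tests of 3 libraries against 3 give no p under 0.1.

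**Figure D1:**
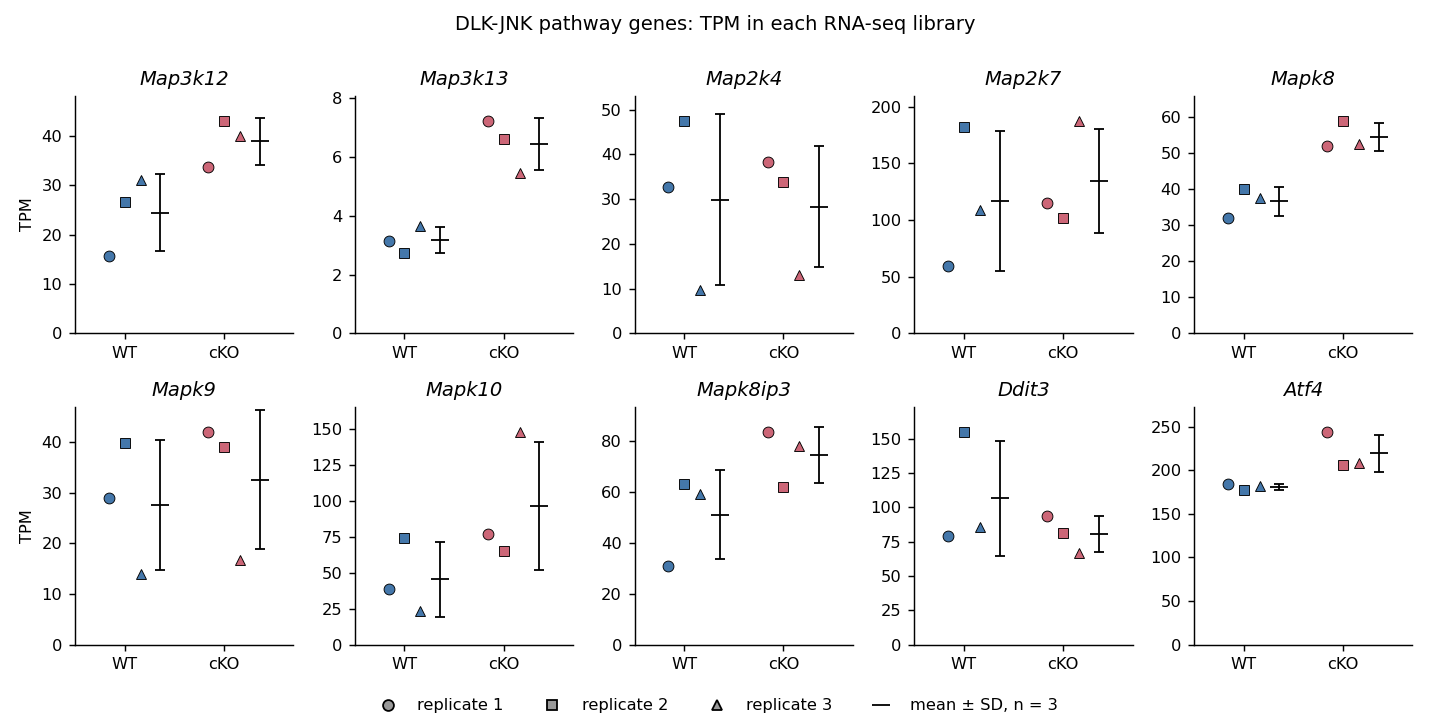
TPM (y axis, from 0, a scale of its own in each panel) of the 10 pathway genes in each RNA-seq library, with WT in blue and cKO in red, a symbol for each replicate number, and the mean ± SD of 3 libraries as bars. The labels do not overlap for *Map3k12*, *Map3k13*, *Mapk8* and *Atf4*, and both replicate 3 libraries are the lowest for *Map2k4* and *Mapk9*.

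**Figure D2:**
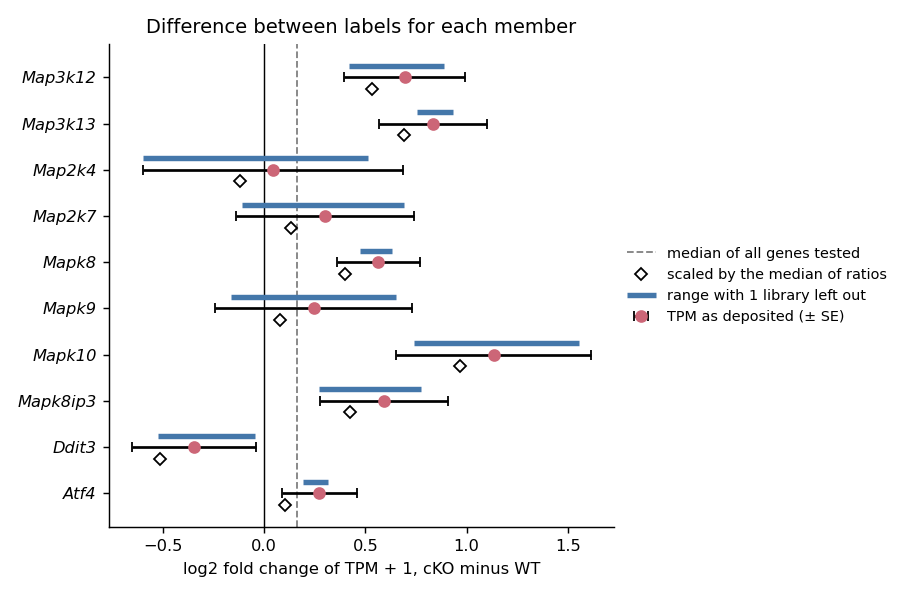
Log2 fold change of TPM + 1 (x axis, cKO minus WT) for each gene, with red points and bars for the estimate ± SE, open diamonds for the estimate after scaling by the median of ratios, blue bars for the range when 1 library was left out, and a dashed line at 0.16, the median of all genes tested. The ranges of *Map2k4*, *Map2k7* and *Mapk9* cross 0, and only the values of *Ddit3* are all below it.

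*Map3k12* encodes DLK, the kinase at the head of the cascade. It was at 15.7, 26.6 and 31.0 TPM in WT replicates 1 to 3 and at 33.8, 43.0 and 40.0 TPM in cKO replicates 1 to 3. The highest WT library lay just under the lowest cKO library, and WT replicate 1 stood lowest. The means were 24.5 ± 7.87 TPM and 38.9 ± 4.73 TPM (SD, n = 3 each), a log2 fold change of 0.69 ± 0.30 (SE, adjusted p = 0.277 from limma). Its unadjusted p from limma was 0.0524, or 0.0295 when the replicate number entered as a block (adjusted p = 0.183). Without WT replicate 1, the log2 fold change was the lowest of the fits that left out 1 library, at 0.42.

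*Map3k13* encodes LZK, the closest relative of DLK, which can act beside it in RGCs. It was the least abundant member, at 3.14, 2.74 and 3.64 TPM in WT and 7.22, 6.63 and 5.46 TPM in cKO. All cKO libraries lay above all WT libraries, and the means of 3.17 ± 0.45 and 6.44 ± 0.90 TPM (SD, n = 3 each) stood 2.03-fold apart. The log2 fold change of 0.83 ± 0.27 (SE) had the lowest adjusted p of the members, 0.183 from limma, and ranged from 0.76 to 0.93 over the fits with 1 library fewer. Since the scale is that of TPM + 1, this value understates the ratio of so low a gene.

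Together, *Map3k12* and *Map3k13* summed to 27.6 ± 8.03 TPM in WT and 45.4 ± 4.34 TPM in cKO (SD, n = 3 each, exact two-sided permutation p = 0.1, the smallest that 3 against 3 libraries allow). *Map3k12* made up 83.4, 90.7 and 89.5% of this sum in WT and 82.4, 86.7 and 88.0% in cKO. The 2 labels overlapped in this share, and the difference of -2.18 percentage points had an exact permutation p of 0.5 (0.6 adjusted over 4 shares).

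*Map2k4* and *Map2k7* encode the kinases between DLK and the JNKs. *Map2k4* was at 32.6, 47.5 and 9.67 TPM in WT and at 38.3, 33.8 and 12.9 TPM in cKO. Both replicate 3 libraries were low, and the labels overlapped across nearly their whole range (log2 fold change 0.04 ± 0.64 (SE), adjusted p = 0.979 from limma). *Map2k7*, at 59.2, 182 and 108 TPM in WT and 115, 102 and 187 TPM in cKO, was the more abundant of the pair in each library. Its highest WT value came from replicate 2 and its highest cKO value from replicate 3, and the labels overlapped (log2 fold change 0.30 ± 0.44 (SE), adjusted p = 0.743 from limma). In these genes the spread among libraries of 1 label was larger than the difference between labels.

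The low replicate 3 values of *Map2k4* were shared by *Mapk9*. For 2 of the 10 members, both replicate 3 libraries lay below the other 4 libraries, as they did for 10.1% of all genes tested. The mean of the other 4 was 3.36 times that of the replicate 3 libraries for *Map2k4* and 2.43 times for *Mapk9*. For the remaining 8 members this ratio ran from 0.746, for *Mapk10*, to 1.34, for *Ddit3*.

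The JNK genes differed in level and in their spread. *Mapk8* encodes JNK1, which is made in many tissues. It was at 32.1, 40.2 and 37.5 TPM in WT and 51.9, 58.9 and 52.5 TPM in cKO. The labels did not overlap, and the means of 36.6 ± 4.10 and 54.4 ± 3.87 TPM (SD, n = 3 each) had the tightest spread for their size in cKO. Its log2 fold change was 0.56 ± 0.20 (SE, adjusted p = 0.215 from limma), and between 0.48 and 0.63 without each library in turn.

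*Mapk9* encodes JNK2, which like JNK3 takes part in RGC death after axon injury. It was at 28.9, 39.8 and 14.0 TPM in WT and 42.0, 39.0 and 16.8 TPM in cKO, with overlapping labels (log2 fold change 0.24 ± 0.49 (SE), adjusted p = 0.818 from limma). *Mapk10* encodes JNK3, the JNK found mainly in neurons. Its WT libraries held 38.9, 73.9 and 23.3 TPM and its cKO libraries 77.0, 65.0 and 148 TPM. WT replicate 2 lay above cKO replicate 2, and cKO replicate 3 was the highest of the 6 libraries. *Mapk10* had the largest log2 fold change of the members, 1.13 ± 0.48 (SE, adjusted p = 0.271 from limma), which ranged from 0.74 to 1.56 with 1 library fewer. Its unadjusted p from limma was 0.0498, which the replicate block moved to 0.0777 and scaling by the median of ratios to 0.0805.

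Summed over the JNK genes, the TPM was 99.9, 154 and 74.8 in WT and 171, 163 and 217 in cKO, with no overlap (exact two-sided permutation p = 0.1, the smallest possible here). *Mapk10* made up 39.0, 48.0 and 31.1% of the sum in WT and 45.1, 39.9 and 68.1% in cKO. The mean shares of *Mapk8*, *Mapk9* and *Mapk10* were 36.1 ± 12.5, 24.5 ± 5.21 and 39.4 ± 8.47% in WT and 30.2 ± 5.97, 18.7 ± 9.54 and 51.0 ± 15.0% in cKO (SD, n = 3 each). For *Mapk10* the exact permutation p was 0.4, for *Mapk9* 0.5 and for *Mapk8* 0.6 (each 0.6 adjusted over 4 shares). The highest *Mapk10* share came from cKO replicate 3 and the lowest from WT replicate 3. The labels overlapped in each of the JNK shares. Since 3 libraries against 3 give no p under 0.1, this test could not have detected a change in the mix of JNK genes.

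**Figure D3:**
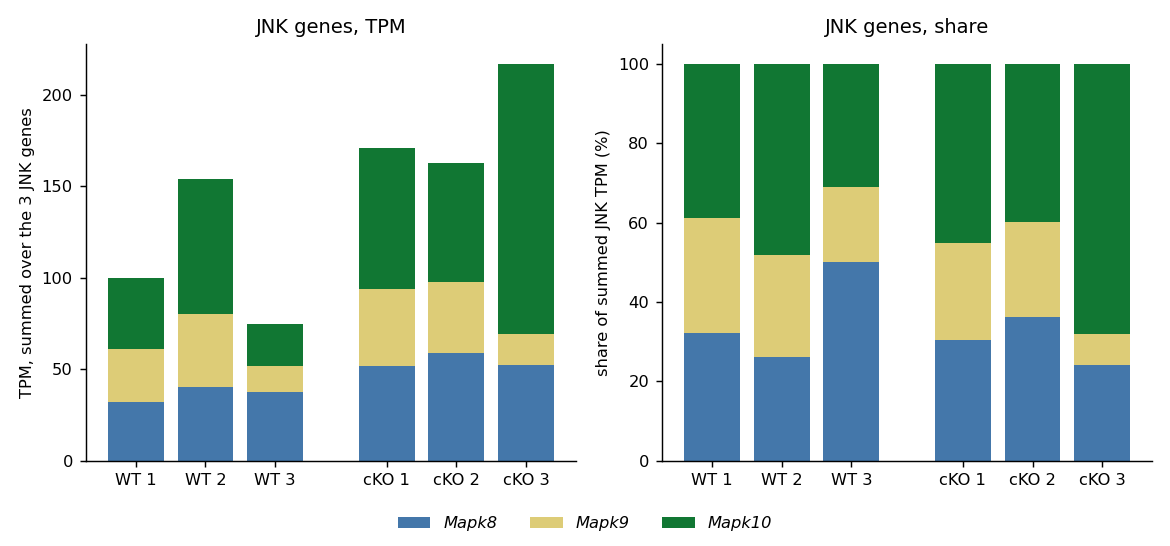
TPM (left, stacked) and share of the summed TPM in percent (right) of *Mapk8*, *Mapk9* and *Mapk10* in each RNA-seq library. The sums run from 74.8 to 154 TPM in WT and from 163 to 217 TPM in cKO, and the 2 replicate 3 libraries hold the lowest and the highest share of *Mapk10*.

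*Mapk8ip3*, the scaffold JIP3, was at 30.9, 62.8 and 59.0 TPM in WT and 83.2, 61.8 and 78.0 TPM in cKO. WT replicate 2 lay just above cKO replicate 2, so the labels overlapped by that pair, and WT replicate 1 stood lowest. The log2 fold change was 0.59 ± 0.32 (SE, adjusted p = 0.359 from limma).

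*Ddit3* and *Atf4* stand for the stress response arm. *Ddit3* encodes CHOP, a transcription factor that promotes cell death under prolonged stress. It was at 79.1, 155 and 86.1 TPM in WT and 93.7, 81.7 and 67.0 TPM in cKO. WT replicate 2 stood apart above the other 5 libraries, which overlapped. The log2 fold change was -0.34 ± 0.31 (SE, adjusted p = 0.583 from limma) and -0.04 without WT replicate 2. *Atf4* was the most abundant member, at 184, 177 and 182 TPM in WT and 244, 206 and 209 TPM in cKO. The WT libraries lay within a narrow band and all cKO libraries above it, with means of 180.9 ± 3.43 and 219 ± 21.1 TPM (SD, n = 3 each). The log2 fold change of 0.27 ± 0.18 (SE, adjusted p = 0.467 from limma) became 0.10 after scaling by the median of ratios, and *Ddit3* then stood at -0.51.

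In order of mean TPM, WT libraries had *Atf4*, *Map2k7*, *Ddit3*, *Mapk8ip3*, *Mapk10*, *Mapk8*, *Map2k4*, *Mapk9*, *Map3k12* and *Map3k13*. Neighbours in this order overlapped in their 3 values except at 2 steps, from *Ddit3* to *Mapk8ip3* and from *Map3k12* to *Map3k13*. In cKO libraries the order was *Atf4*, *Map2k7*, *Mapk10*, *Ddit3*, *Mapk8ip3*, *Mapk8*, *Map3k12*, *Mapk9*, *Map2k4* and *Map3k13*. There *Atf4* was clear of *Map2k7*, *Mapk8ip3* of *Mapk8*, *Mapk8* of *Map3k12*, and *Map2k4* of *Map3k13*, and the other neighbours overlapped. *Map3k12* was above *Map3k13* by 7.76 ± 2.45 times in WT and 6.17 ± 1.36 times in cKO (SD, n = 3 each, exact two-sided permutation p = 0.4).

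The genes whose log2(TPM + 1) ran most like that of *Map3k12* over the 6 libraries were *Kdm6a*, *Ap3d1*, *Wdr19*, *Gm46430* and *Zkscan17*, with Pearson's r from 0.989 to 0.993. *Kdm6a*, a histone H3K27 demethylase gene, ran from 18.8 TPM in WT replicate 1 to 33.8 TPM in cKO replicate 2, the same libraries that held the lowest and highest *Map3k12*. For *Ddit3* the closest were *Cenpl*, *Blvra*, *Nab2*, *Fez2* and *Bnip3l-ps*, with r from 0.990 to 0.995. *Nab2*, a corepressor of the EGR factors, was at 70.0 TPM in WT replicate 2 and at 14.5 to 24.3 TPM in the other 5 libraries. With 6 points picked from all genes tested, these r are a description of the libraries.

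Other genes of the pathway were taken as 8 lists with 98 genes, of which 91 were tested. At an adjusted p of 0.05, 0 of the 91 were called by limma. At an unadjusted p under 0.05, 11 (12.1%) lay higher in cKO and 9 (9.89%) lower, beside the 11.9% and 6.45% of all genes given for the members. After scaling by the median of ratios these counts were 7 and 19, and in the fit with the replicate block 11 and 14. Over all genes, 2095 higher and 1133 lower became 1338 and 1675 after that scaling, and 2352 and 1495 with the block. Without cKO replicate 1 the list counts were 7 and 5 (1138 and 887 over all genes). Without cKO replicate 2 they were 6 and 2 (976 and 699 over all genes). A log2 fold change above 0 was the more common case over all genes tested, at 61.1% (50.8% after that scaling), and the counts above and below 0 in each list stand beside that share. Since the scaling divides all genes of a library by the same factor, the medians of all lists fell by similar amounts. The highest of the 8 went from 0.33 to 0.18 and the lowest from -0.49 to -0.66. The marker shifts of rods, T cells and myeloid cells given above stood between the same libraries, and their part in these values was not tested.

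Upstream of the JNKs, 11 of 18 tested genes for other MAP3Ks and MAP4Ks had a log2 fold change above 0 and 7 below, with a median of 0.15 that turned to -0.01 after scaling by the median of ratios. *Map3k10*, a mixed lineage kinase gene, had the largest, 0.80 (adjusted p = 0.217 from limma), at 1.91, 1.31 and 1.65 TPM in WT and 2.57, 4.13 and 4.11 TPM in cKO. *Mink1*, a MAP4K-family gene that lies upstream of DLK in injured neurons, had the smallest, -0.93, and was at 76.8 TPM in WT replicate 2 and 12.1 to 16.8 TPM in the other libraries. *Map4k4*, of the same family, was at -0.14, *Map3k5* (ASK1) at -0.73 and *Map3k11* (MLK3) at -0.60, with overlapping labels in all 3.

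Among genes for DLK turnover and JNK scaffolds, 7 of 11 lay above 0 and 4 below, with a median log2 fold change of 0.33. *Mapk8ip2*, the scaffold JIP2, had the largest, 1.14 ± 0.26 (SE, adjusted p = 0.125 from limma). It was at 19.2, 19.7 and 16.9 TPM in WT and 52.2, 46.3 and 30.8 TPM in cKO, with no overlap. *Spag9*, the scaffold JIP4 and closest relative of JIP3, did not overlap either, with 29.2, 33.5 and 38.6 TPM in WT and 47.6, 49.9 and 48.2 TPM in cKO (log2 fold change 0.52, adjusted p = 0.249 from limma). *Mapk8ip1*, the scaffold JIP1, was at -0.12, with 101 TPM in WT replicate 2 and 28.1 to 50.8 TPM in the others. *Mycbp2*, the E3 ligase PHR1 that marks DLK for breakdown, stood at 0.08, and *Usp9x*, the enzyme that removes ubiquitin from DLK, at 0.46. *Arrb2*, a JNK3 scaffold, had the smallest value, -0.70.

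The JNK phosphatase genes had 4 values above 0 and 3 below, with a median of 0.30. *Dusp8*, a phosphatase of JNK and p38, was at 112, 83.7 and 142 TPM in WT and 206, 197 and 202 TPM in cKO. Its labels did not overlap (log2 fold change 0.87 ± 0.24 (SE), adjusted p = 0.151 from limma). *Dusp1*, an immediate early phosphatase, was at 534 to 669 TPM in WT and at 235, 391 and 765 TPM in cKO, and *Dusp2* had the smallest value of the list, -1.18 ± 1.26 (SE).

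Of JNK substrates and injury genes that depend on DLK, 6 of 12 tested lay above 0 and 6 below, with a median of -0.07. *Jun*, the substrate that names the kinases, was at 791, 1230 and 1504 TPM in WT and 397, 359 and 1172 TPM in cKO. Only cKO replicate 3 reached into the WT range, and the log2 fold change was -1.04 ± 0.49 (SE, adjusted p = 0.310 from limma). *Atf3*, an early injury factor, was at 56.0, 24.8 and 85.6 TPM in WT and 39.8, 17.3 and 19.4 TPM in cKO (-1.02 ± 0.51 (SE), adjusted p = 0.330 from limma). *Klf6*, a regeneration-linked factor, had the smallest value, -1.53 ± 0.36 (SE, adjusted p = 0.126 from limma), with no overlap. At the other end stood *Map1b*, a microtubule protein and JNK substrate, with 1.02 ± 0.21 (SE, adjusted p = 0.124 from limma) and 130, 164 and 154 TPM in WT against 305, 353 and 256 TPM in cKO. *Stmn2*, a stathmin that supports axon maintenance, was at 4.26, 1.44 and 3.93 TPM in WT and 8.51, 5.54 and 6.62 TPM in cKO (0.97 ± 0.38 (SE), adjusted p = 0.246 from limma).

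In the stress response, ATF4 and CHOP target genes had 5 values above 0 and 14 below, with a median log2 fold change of -0.32. *Asns*, the asparagine synthetase gene and a direct ATF4 target, was at 29.8, 54.6 and 31.0 TPM in WT and 56.7, 50.2 and 56.0 TPM in cKO (0.54, adjusted p = 0.348 from limma). *Trib3* and *Chac1*, which CHOP and ATF4 induce, stayed low, at 1.65 to 3.02 TPM and at up to 1.81 TPM. *Vldlr*, a lipoprotein receptor gene, had the largest value, 0.92 ± 0.27 (SE, adjusted p = 0.159 from limma), and *Atf5* the smallest, -1.68 ± 0.68 (SE, adjusted p = 0.256 from limma), with 54.9 TPM in WT replicate 2 and 4.01 to 9.09 TPM elsewhere. *Bbc3*, which encodes the death protein PUMA, was at 5.35, 13.3 and 1.84 TPM in WT and 1.73, 1.16 and 1.66 TPM in cKO (-1.35, adjusted p = 0.271 from limma). WT replicate 2, highest for *Ddit3*, was also highest for *Atf5*, *Bbc3*, *Mink1* and *Mapk8ip1*, among others. How many of all genes tested were highest in that library was not counted, so no trait of these genes can be read from it.

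The genes for eIF2 kinases and their phosphatase had 3 values above 0 and 4 below, with a median of -0.01. *Eif2ak3* encodes PERK, through which DLK is known to engage ATF4, and was at 12.2, 10.45 and 5.18 TPM in WT and 3.85, 4.40 and 3.68 TPM in cKO. Its labels did not overlap (-0.98 ± 0.35 (SE), adjusted p = 0.216 from limma). *Eif2ak4*, the amino acid sensor GCN2, lay the other way, at 5.41, 6.58 and 9.08 TPM in WT and 11.6, 9.66 and 10.3 TPM in cKO (0.54 ± 0.28 (SE), adjusted p = 0.346 from limma). In the other arms of the unfolded protein response 3 values were above 0 and 7 below, with a median of -0.34. *Sdf2l1*, an endoplasmic reticulum chaperone component, had the smallest, -1.42 ± 0.25 (SE, adjusted p = 0.124 from limma), and *Atf6*, a sensor of that compartment, the largest, 0.56 ± 0.25 (SE, adjusted p = 0.289 from limma).

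Of 7 tested genes for death and axon loss, 3 lay above 0 and 4 below, with a median of -0.49. *Sarm1*, the NAD-consuming executor of axon degeneration, had the largest value, 1.17 ± 0.31 (SE, adjusted p = 0.147 from limma), at 8.61, 9.51 and 15.9 TPM in WT and 21.2, 25.0 and 32.7 TPM in cKO. *Nmnat2*, the NAD-making enzyme that protects axons and whose turnover DLK promotes, was at 11.7, 19.4 and 11.8 TPM in WT and 28.5, 33.7 and 29.1 TPM in cKO (1.07 ± 0.27 (SE), adjusted p = 0.139 from limma). The labels did not overlap for either gene. *Bcl2l11*, which encodes the death protein BIM, had the smallest value, -0.52 ± 0.27 (SE, adjusted p = 0.349 from limma), at 14.4, 12.9 and 15.5 TPM in WT and 7.62, 9.41 and 12.4 TPM in cKO. *Hrk*, a death gene known as a JNK target, was too low to be tested, at 1.10 TPM or less.

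**Figure D4:**
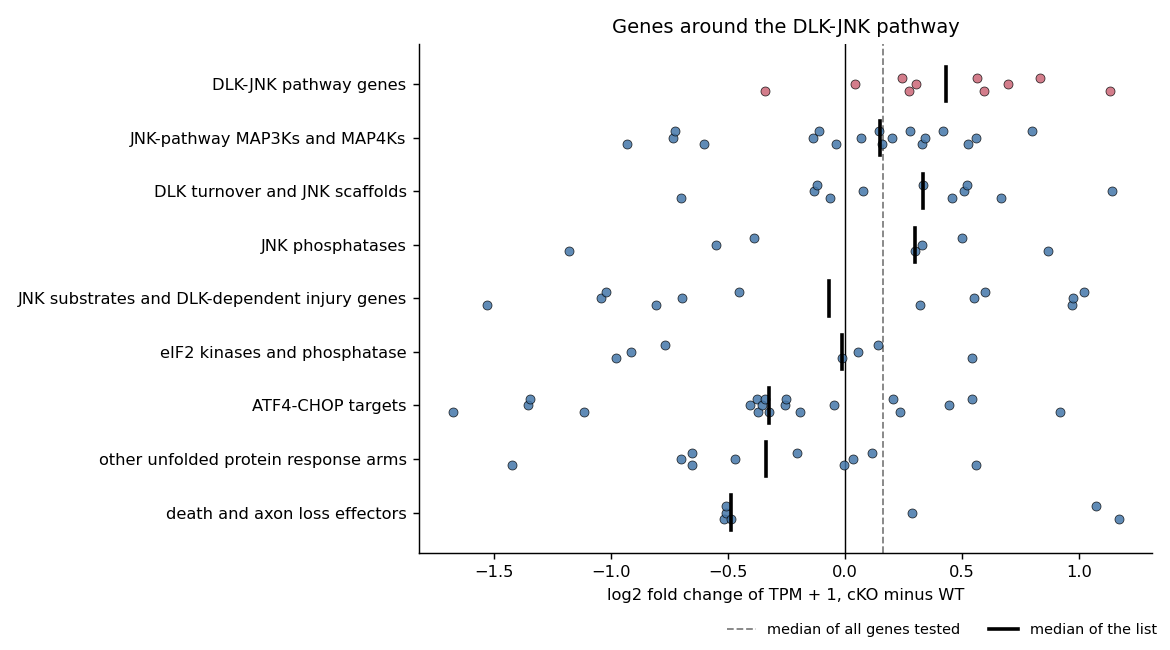
Log2 fold change of TPM + 1 (x axis, cKO minus WT) of each tested gene in the pathway lists, with the 10 DLK-JNK pathway genes in red, other lists in blue, a black bar at each list's median and a dashed line at the median of all genes tested. The medians run from 0.43 for the pathway genes to -0.49 for death and axon loss effectors, and every list has values on both sides of 0.

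For ATAC-seq, which marks open chromatin, the authors' group values were available as log2 mean normalized reads. With no value per library, no error or test was computed here, and the authors' own test per region was not used. Each of the 7 regions at an end of a member had a lower value in cKO than in WT. Their differences ran from -4.52 to -2.03 on the log2 scale, with a median of -3.26, beside -1.57 over all regions and -2.50 over the 8002 regions within 1000 bp of an end of any gene. All 7 had a difference of -2 or less, as did 67.6% of the regions at gene ends and 40.8% of all regions. After centring on the median of all regions, the median of the 7 was -1.69. All 7 regions overlapped peaks in both WT libraries and in neither cKO library. They thus came into the comparison through WT peaks alone, which favoured a lower value in cKO from the outset. No region of the comparison lay within 1000 bp of an end of *Map3k13*, *Mapk10* or *Mapk8ip3*.

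At the *Map3k12* end the region was chr15:102517826-102518767, with 136 mean normalized reads in WT and 5.94 in cKO, a difference of -4.52. It began 822 bp before the 5′ end of *Map3k12* and covered no *Map3k12* start. It did cover the RefSeq start of *Tarbp2*, at base 102518192 on the opposite strand, so it cannot be assigned to *Map3k12* alone. The first of the printed *Map3k12* promoters held no peak in any of the 4 libraries. The second one, before an inner start, lay in the region chr15:102510230-102511198, with 20.8 normalized reads for WT and 6.87 for cKO. Its difference of -1.60 was close to the median of all regions, and it overlapped peaks in both WT libraries and in neither cKO library.

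The MAP2K genes had a region over their 5′ ends. At *Map2k4* it was chr11:65787996-65788445, with 19.2 normalized reads for WT and 4.69 for cKO, the smallest difference of the 7 (-2.03). At *Map2k7* it was chr8:4238361-4239149, with 84.4 and 8.34 reads (-3.34), a window that also lies within 1000 bp of an end of *Lrrc8e*. Of the JNK genes, *Mapk8* had the region chr14:33446792-33447479 over its GC-rich promoter, with 73.0 reads in WT and 3.46 in cKO (-4.40). *Mapk9* had chr11:49846273-49847280, with 66.7 and 8.88 reads (-2.91), which covers a start of *Gm36507* too. The region of *Mapk10* lay 1229 bp inside the gene, past the limit of 1000 bp, at chr5:103210806-103211375. It covered the annotated start behind the printed *Mapk10* promoter, with 23.9 reads in WT and 4.14 in cKO (-2.53). This *Mapk10* region also overlapped peaks in both WT libraries and in neither cKO library.

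*Ddit3* and *Atf4* had wide regions over their starts. The *Ddit3* region, chr10:127289904-127291183, held 101.8 normalized reads in WT and 10.6 in cKO (-3.26), spans the whole printed promoter, and lies within 1000 bp of an end of *Mbd6*. The *Atf4* region, chr15:80254987-80256016, held 77.2 and 8.28 reads (-3.22). The TPM of the 7 genes did not follow the sign of these differences, since 6 of them had a log2 fold change in RNA above 0 (5 after scaling by the median of ratios, with *Map2k4* then below) and *Ddit3* one below 0. RNA and chromatin came from separate libraries, and with 7 genes no relation between them was tested.

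Away from the ends, *Map3k13* had a region inside the gene at chr16:21900672-21901058 with the opposite difference, 0.88 normalized reads in WT and 8.69 in cKO (3.31). It coincided with a peak in each cKO library and with none in WT, so it came into the comparison through cKO peaks alone. It lay 8703 bp from the nearest annotated start. A region beyond the 3′ end of *Mapk10*, chr5:102903549-102903922, was of the same kind, with 1.75 reads in WT and 7.73 in cKO (2.14). Outside the genes, 3 other regions near members had the lower value in cKO. These 3 overlapped peaks in both WT libraries and in neither cKO library, so they came into the comparison through WT peaks alone. Past the 3′ end of *Map2k7*, chr8:4252591-4253500 held 37.3 reads in WT and 5.70 in cKO (-2.71) and covered the start of *Snapc2*. Near *Mapk8ip3*, chr17:24941545-24942096 held 9.19 and 0.88 reads (-3.38) and chr17:24895155-24895478 held 9.45 and 3.76 reads (-1.33), each within 1000 bp of an end of another gene. Apart from the *Map2k7* one, these distal regions had fewer than 10 mean normalized reads in either group.

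In the peak lists, 8 members had a peak within 1000 bp of an end in WT replicate 1 and 7 in WT replicate 2, beside 30.7% and 25.1% of all genes and 65.1% and 58.2% of the genes tested by RNA-seq. The 8th was *Mapk8ip3*, with a peak over its 5′ end in WT replicate 1 alone. In cKO replicate 1 the number was 2, *Map2k7* and *Mapk9*, and in cKO replicate 2 it was 0, beside 10.6% and 11.5% of all genes and 13.6% and 13.9% of those tested. Neither of the cKO peaks lay over a start, since that of *Mapk9* ended 561 bp before its 5′ end and that of *Map2k7* lay past its 3′ end. The lists hold 76522 and 42265 peaks in WT and 55902 and 68317 in cKO, so both cKO totals lay between the WT totals. Inside the large gene *Mapk10* the number of peaks was 12 and 9 in WT and 11 and 12 in cKO. With 2 libraries against 2, an exact two-sided permutation test gives no p under 0.333.

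**Figure D5:**
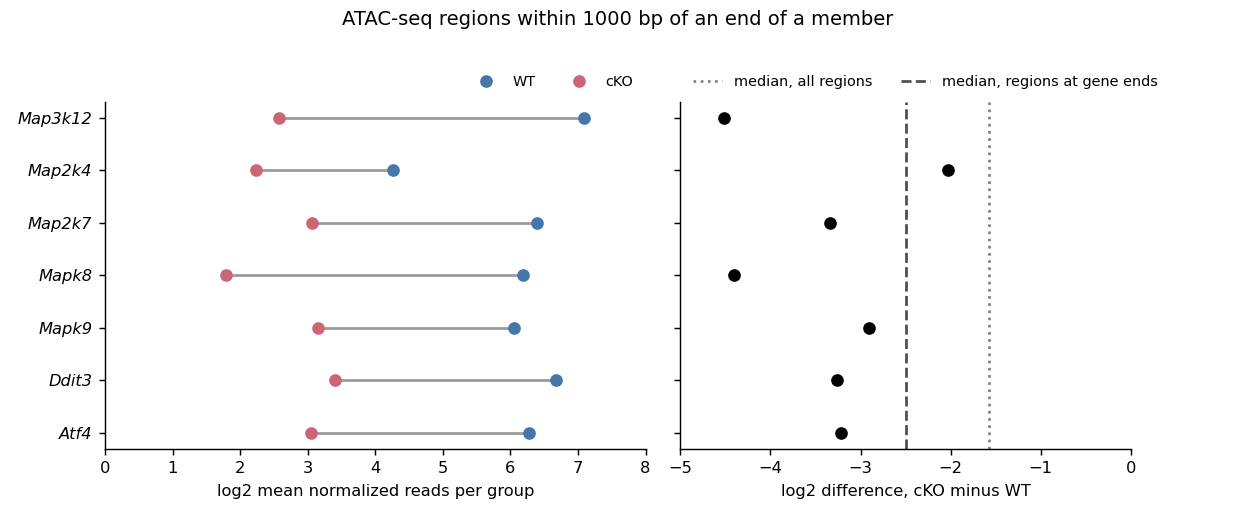
Left, group means of the normalized reads on a log2 scale (x axis) in the region at an end of each of 7 pathway genes, with WT in blue and cKO in red. Right, the difference cKO minus WT, with the medians of all regions (-1.57, dotted) and of regions at gene ends (-2.50, dashed), which shows 6 of the 7 genes left of both lines and *Map2k4* between them.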

How the data were processed

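RNA-seq covered 3 WT and 3 cKO libraries and ATAC-seq 2 of each, grouped by the sample labels. The authors deposited TPM values per gene, made with Salmon and tximport, and log2 mean normalized reads per group and region, made with DiffBind, beside peak positions per library. The submitters' processing notes name Salmon 1.0.0, DESeq2 1.26.0, Bowtie2 2.3.5.1, MACS2 2.2.5 and the build GRCm38. The authors' own fold changes and p-values were not used. Depth is not given.

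Of all genes, 17555 reached a TPM of 1 in 3 or more of the 6 libraries and were tested, and log2(TPM + 1) was compared with limma 3.58.1 in R 4.3.3 (empirical Bayes with a trend, Benjamini-Hochberg over all genes tested), checked on simulated data. The labels give replicate numbers and do not say that equal numbers belong together. Deviations of same-numbered libraries from their group means had r = 0.334, 0.101 and 0.425, and differently numbered pairs were not compared. A fit with the number as a block was run as an alternative. Starts of the deposited regions count from 0 and were moved to count from 1. Promoters came from RefSeq on GRCm38.p6 and gave the strand. A shared peak overlapped by at least 1 bp. Python 3.11.15 was used otherwise. The members, lists and tests were chosen with earlier results of these data known. Besides the members and *Arid1a*, genes named are a fixed set, the extremes of each pathway list and of the RGC markers, and the 5 genes closest in pattern to *Map3k12* and to *Ddit3*. The extremes of the other marker lists are not named. *Pou4f2*, *Pou4f3*, *Thy1*, *Isl1*, *Nefl*, *Nefm*, *Nefh*, *Rbpms*, *Pou4f1*, *Tarbp2* and the neighbours of other regions were singled out after their values were seen. Alternatives were a pseudocount of 0.1, scaling by the median of ratios, no filter, a mean TPM of 5 or more, the block, no variance trend, leaving out each library, windows of 3000 bp or of the 5′ end alone, peaks at least 50% inside the window, and centred ATAC-seq values.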

Additional observations from a re-analysis of the deposited data

How the results depend on the processing

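No member was called at an adjusted p of 0.05 by limma under any alternative run, and 7 of the 10 kept their direction in all of them (*Map3k13* was not tested at a mean TPM of at least 5). *Map2k4* moved to -0.12 (log2 fold change) after scaling by the median of ratios, and leaving out 1 library gave -0.60 to 0.51 for it, -0.11 to 0.69 for *Map2k7* and -0.16 to 0.65 for *Mapk9*. With 1 library fewer, 0 to 3 members had an unadjusted p under 0.05 and were higher in cKO. The *Mapk8* share of JNK TPM differed by -10.9 to 1.14 percentage points, the last without WT replicate 3.

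Among all genes, 1 was called, against 2 with the replicate block, 4 with no trend in the variance and 0 to 1 with 1 library fewer. At an unadjusted p under 0.05, scaling by the median of ratios gave 1338 higher genes for 2095 and 1675 lower for 1133. The replicate block gave 2352 and 1495, and leaving out 1 library gave 976 to 2279 and 699 to 1321. In the pathway lists the higher and lower counts were 7 and 19 after that scaling, 11 and 14 with the replicate block, and 6 to 10 and 2 to 11 with 1 library fewer. The replicate block changed the side of the unadjusted threshold for *Map3k12* and *Mapk10* among the members. The causes of these shifts were not tested. No paired analysis was possible because of the group means in the ATAC-seq comparison.

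In ATAC-seq, the median difference of the members' regions was -1.69 after centring on the median of all regions. Within 3000 bp, 4 members had a peak in cKO replicate 1 and 3 in cKO replicate 2, and at the 5′ end alone 1 member did in cKO replicate 1. TPM values and group means without depth limit what can be said of low genes such as *Map3k13*.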
